A study of Saccharomyces cerevisiae with 2 samples.

Results

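Thioredoxins, glutaredoxins and peroxiredoxins are small proteins that keep the cysteines of the yeast cytosol and mitochondria reduced and break down peroxides. Thioredoxin passes electrons from NADPH, through thioredoxin reductase, to the peroxiredoxins and to enzymes such as ribonucleotide reductase, and the glutaredoxins do similar work with electrons from glutathione. Several of these genes are known targets of the oxidant-responsive factors Yap1 and Skn7, and some also of the general stress factors Msn2 and Msn4. The 10 genes described were chosen by name and not by their values: the thioredoxins TRX1 (YLR043C), TRX2 (YGR209C) and TRX3 (YCR083W), the peroxiredoxins TSA1 (YML028W), TSA2 (YDR453C) and AHP1 (YLR109W), the glutaredoxins GRX1 (YCL035C), GRX2 (YDR513W) and GRX4 (YER174C), and SOD1 (YJR104C), which is a copper-zinc superoxide dismutase and belongs to none of the 3 families. They are 10 of the 6207 yeast reading frames on the array.

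Both conditions were the same Saccharomyces cerevisiae mutant, called msn2/4 in the labels, grown in rich medium at 24 °C. The culture was split, 1 part received zymolyase, a preparation of enzymes that digest cell wall glucan, at 5 units per ml, the other part received none, and both were collected at 3 hours. RNA of the 2 parts was hybridised on 2 two-colour arrays, with Cy5 on the untreated RNA and Cy3 on the RNA from zymolyase on array 1 and the dyes exchanged on array 2. The 2 arrays are taken as repeat measurements of 1 pair of RNA extracts: the series' design text gives 1 culture and is followed here, although the text of each sample speaks of several, so that whether the spread between the arrays is purely technical rests on the design text. On that reading the conditions could not be tested against each other, and each SD is over the 2 hybridisations only (n = 2 arrays, taken as technical). No wild-type strain is analysed here. With cultures compared in bulk, fewer cells and less RNA per cell cannot be told apart.

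Each value is a log2 ratio of the 2 channels. The sources used here do not state which channel is the numerator, nor whether array 2 had been brought to the direction of array 1 before deposit. In the main setting array 2 was turned here, because its dyes were exchanged, and the 2 arrays were averaged. The deposited array 2 column is the inverse of a ratio first written to 4 decimals, as described under the processing. The turn returns it to that ratio, so the dye exchange alone does not settle the choice. With that turn the cell wall stress genes SLT2 (4.08 and 2.00), KDX1 (3.96 and 3.48) and PIR3 (3.73 and 2.70) were positive on both arrays, so that positive ratios are likely zymolyase over untreated. That direction is an assumption taken from what zymolyase is known to do to those genes. Without the turn those 3 genes have opposite signs on the 2 arrays. For the redox genes the 2 choices give different pictures, and both readings are given for each of them. For other genes the reading with the turn is given unless the text says as deposited. The numerator stays unstated in both, and the other numerator would turn every sign.

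Ratios were deposited for 2428 genes on array 1 and 2918 on array 2. Of the 10 redox genes, 8 had a ratio on both arrays, against 36.3% of all genes (2254 of 6207). TRX3 and GRX2 were valued on array 2 alone, as were 664 genes in all. Over the 2254 genes the median ratio was -0.31 on array 1 and -0.39 on array 2 after the turn. Pearson's r between the arrays, across genes, was -0.19 after the turn and 0.19 as deposited.

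With array 2 turned, most of the redox genes averaged near 0: 6 of the 8 genes had a mean between -0.38 and 0.11, while their values on the 2 arrays had opposite signs. Opposite signs were common in the series. They were seen in 7 of the 8 redox genes, beside 60.2% of all genes (1358 of 2254) and 73.1% of the 368 other genes of 312 to 735 nt. A gene was called if the 2 arrays agreed in sign and their mean reached 2-fold, which is 1 in log2 units. By that rule 1 of 8 was called negative and none positive, against 13.6% negative (307 of 2254) and 2.88% positive (65 of 2254) among all genes. No p-value can be attached to that count. The called gene was GRX4. With array 2 as deposited, 5 of the 8 were called negative (TRX1, TRX2, TSA1, GRX1 and SOD1) and none positive, against 13.7% (309 of 2254) and 12.3% (277 of 2254) of all genes. The members' median was -0.15 with the turn, where all genes had -0.37, and -1.49 without it, where all genes had 0.07.

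**Figure D1:**
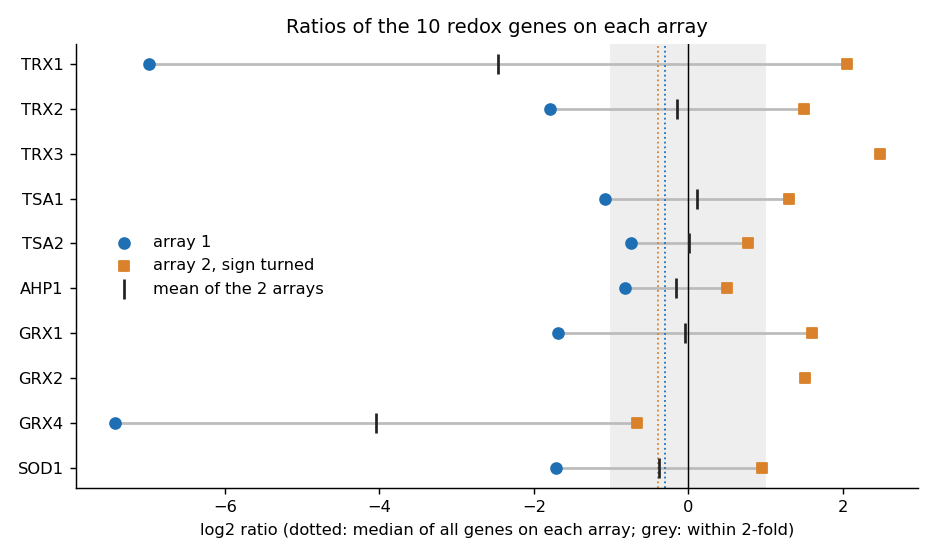
Log2 ratio of each redox gene on array 1 (blue circles) and on array 2 with its sign turned (orange squares); the black tick is their mean, the grey band is within 2-fold, and dotted lines mark the median of all genes on each array. For every gene but GRX4 that was valued on both arrays the 2 points lie on opposite sides of 0, as for 60.2% of all genes. TRX3 and GRX2 have only an array 2 value.

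TRX1 and TRX2 encode the 2 cytosolic thioredoxins, which are close paralogs. TRX2 had -1.79 on array 1 and 1.502 on array 2 turned, a mean of -0.15 ± 2.33 (SD, n = 2 arrays). As deposited the same measurements were -1.79 and -1.502, a mean of -1.65 ± 0.21. The 2 columns thus gave almost the same number for TRX2, and the turn makes them cancel. TRX1 had -6.98 on array 1, a ratio of 0.0079, and 2.06 on array 2 turned, a mean of -2.46 ± 6.40, past 2-fold but with opposite signs and so not called. As deposited TRX1 had a mean of -4.52 ± 3.48, rank 2 from the lowest of 2254 genes. TRX1 minus TRX2 was -5.19 on array 1 and 0.56 on array 2 turned, so TRX1 was the more extreme on each. Cross-hybridisation between them cannot be separated on an array of this kind. TRX3, the mitochondrial thioredoxin, had 2.49 on array 2 turned (-2.49 as deposited). That was the largest array 2 ratio in size among the 10 genes, at percentile 0.651 of the 2918 deposited array 2 values, but it has no second measurement.

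As deposited, TSA2 and AHP1 had the means closest to 0 of the 8 genes, followed by TSA1. TSA1, the abundant cytosolic peroxiredoxin that also acts as a chaperone, had -1.08 and 1.31 on array 1 and array 2 turned, a mean of 0.11 ± 1.69, and a mean of -1.19 ± 0.16 as deposited. Its paralog TSA2 had -0.75 and 0.78, a mean of 0.02 ± 1.08, and -0.76 ± 0.02 as deposited. AHP1, a thiol peroxidase that prefers alkyl hydroperoxides, had -0.82 and 0.51, a mean of -0.16 ± 0.94, and -0.66 ± 0.22 as deposited. None of the 3 was past 2-fold with the turn, and TSA1 alone of them was called without it. In all 3 the SD with the turn exceeded the mean in size, whereas the SD as deposited was smaller than the mean in size. The SD was also smaller as deposited in the series as a whole. Its median over all genes was 0.99 with the turn and 0.70 as deposited, and over the 368 other genes of 312 to 735 nt 1.29 and 0.84. TSA1 and TSA2 differed by -0.34 on array 1 and 0.53 on array 2 turned, differences of opposite sign, so the 2 paralogs have no order with the turn. As deposited TSA1 was the lower of the pair on both arrays.

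Among the glutaredoxins, GRX1 repeated the pattern of TRX2. GRX1 and GRX2 encode the classical glutaredoxins, which have a pair of active-site cysteines. GRX1 had -1.69 and 1.60, a mean of -0.05 ± 2.33, and -1.64 ± 0.07 as deposited. GRX2 was valued on array 2 alone, at 1.52 turned and -1.52 as deposited, within 0.08 of GRX1 on that array.

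GRX4 was the one redox gene with the same sign on both arrays after the turn. It encodes a glutaredoxin with a single active-site cysteine that, with its paralog Grx3, relays iron status to the iron regulator Aft1. Its ratios were -7.43 on array 1, which is a ratio of 0.0058, and -0.66 on array 2 turned, and the mean of -4.05 ± 4.79 was rank 6 from the lowest of 2254. As deposited its signs differed, and the mean was -3.38 ± 5.72. The call therefore rests on array 1, and on array 2 alone the gene was within 2-fold. On array 1, 31 of the 2428 valued genes lay at -6 or lower, TRX1 and GRX4 among them, against 3 of 2918 on array 2 turned. Of the 27 also valued on array 2, 18 were within 2-fold there, with a median of -0.09 after the turn. The table holds no spot intensities, so the signal behind these ratios is unknown. GRX3 itself had -1.54 and 0.79, a mean of -0.38 ± 1.64, which is 5.89 above GRX4 on array 1 and 1.45 above it on array 2 turned.

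SOD1, which turns superoxide into peroxide in the cytosol, had -1.71 on array 1 and 0.95 on array 2 turned, a mean of -0.38 ± 1.88. As deposited its mean was -1.33 ± 0.54 and it was called negative. Without SOD1 the remaining 7 genes had a median of -0.15 with the turn and -1.64 as deposited.

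**Figure D2:**
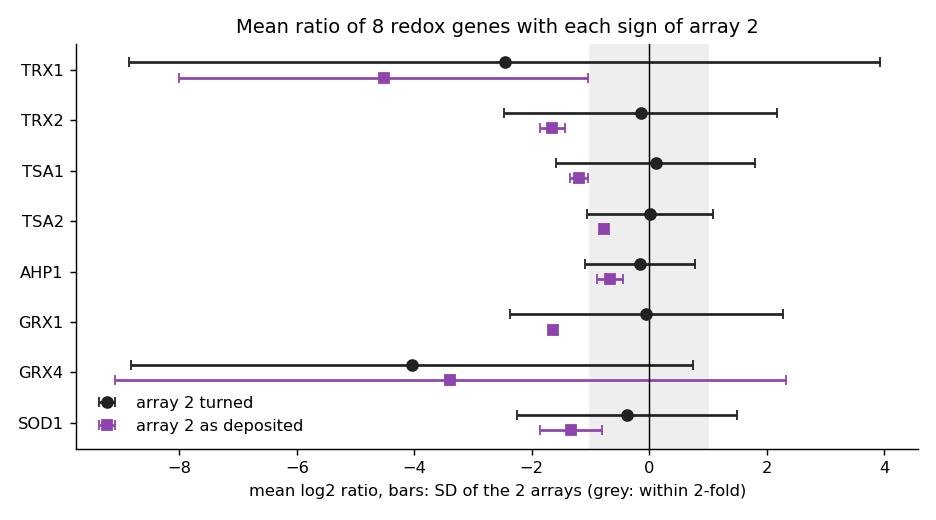
Mean log2 ratio ± SD of the 2 arrays for the 8 redox genes valued on both, with array 2 turned (black circles) and as deposited (purple squares); the grey band is within 2-fold. As deposited, TRX2, TSA1, TSA2, AHP1 and GRX1 lie below 0 with SDs of at most 0.22, and with the turn the same genes lie near 0 with SDs of 0.94 to 2.33.

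Ordered by mean ratio with the turn, from lowest to highest, the genes ran GRX4, TRX1, SOD1, AHP1, TRX2, GRX1, TSA2 and TSA1. From SOD1 to TSA1 all neighbours lay within 0.22 of each other, less than the smallest SD between arrays of any member (0.94), so that no order among those 6 is resolved. As deposited the order was TRX1, GRX4, TRX2, GRX1, SOD1, TSA1, TSA2 and AHP1. TRX2 and GRX1 then differed in mean by 0.00305. TRX1, TRX2 and GRX1 (312, 315 and 333 nt long) stood below TSA1, TSA2 and AHP1 (591, 591 and 531 nt), TRX1 with an SD of 3.48. The deposited means moved with gene length, as described below. DOT5, a peroxiredoxin outside the 10 genes, had a deposited mean of -1.67, below TRX2 and GRX1. An order of the families was not tested.

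On each single array most redox genes lay to 1 side of the median of all genes. All 8 genes valued on array 1 were negative, where the median over the 2254 genes valued on both arrays was itself -0.31. Their percentiles on array 1 ran from 0.288 for GRX4 to 40.9 for TSA2, with AHP1 at 38.9 and TSA1 at 33.2. Past 2-fold negative there were 6 of the 8, as were 35.4% of all genes on that array. On array 2, 9 of 10 were positive after the turn, where the median over the 2254 genes was -0.39. Past 2-fold were 6 of the 10, as were 9.29% of all genes on it. In the deposited array 2 values those 9 genes lay between percentile 0.651 for TRX3 and 19.5 for AHP1, and GRX4 at 61.8. The array 2 median over all 10 genes was 1.40 after the turn, and the array 1 median over 8 genes was -1.70. The 368 other genes of 312 to 735 nt had medians of 0.40 on array 2 turned and -1.31 on array 1, so part of the distance from all genes is shared by genes of that length.

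**Figure D3:**
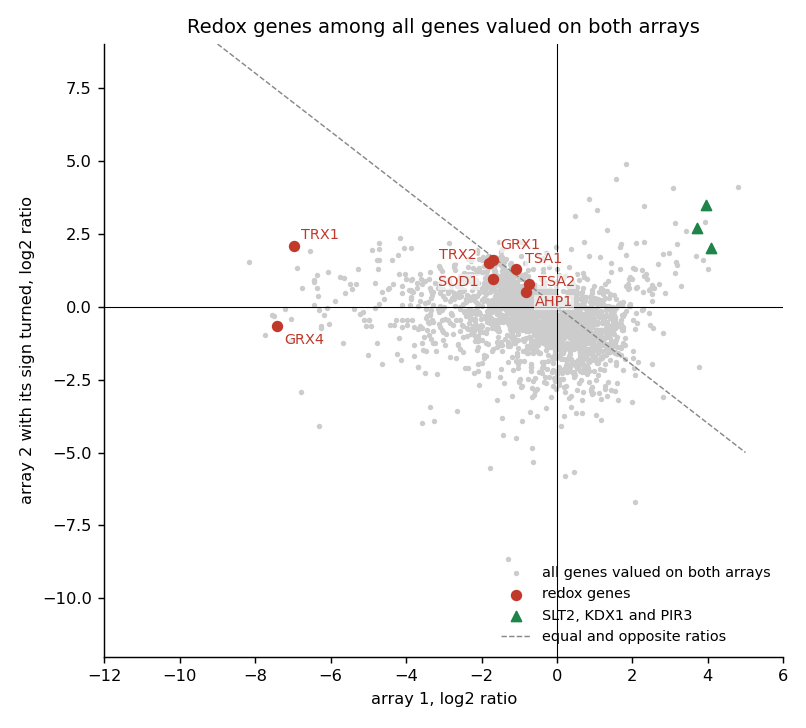
Log2 ratio on array 1 (x axis) against array 2 with its sign turned (y axis) for 2254 genes (grey), the 8 redox genes valued on both (red) and SLT2, KDX1 and PIR3 (green triangles); the dashed line joins equal and opposite ratios. TRX2, TSA1, TSA2, AHP1 and GRX1 lie close to the dashed line, TRX1 and GRX4 lie in the low tail of array 1, and the 3 green genes are positive on both arrays.

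The 10 genes share a feature that did not choose them: all are short. Their annotated lengths run from 312 nt for TRX1 to 735 nt for GRX4, against a median of 1254 nt over the genes valued on both arrays with a length. The mean of the deposited columns moved with length across genes (Spearman's rho = 0.46 over 2174 genes, which share the same 2 arrays), and the mean with the turn hardly did (rho = 0.03). Both deposited columns carried that relation, with rho = 0.34 on array 1 and 0.46 on array 2. The 438 shortest genes, up to 765 nt, had a median of -0.85 as deposited, and the 435 longest, from 1983 nt, had 0.42.

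Set against the 368 other genes of 312 to 735 nt, the redox genes stood less apart as deposited, but not with the turn. Of those 368 genes 150 (40.8%) were called negative as deposited, beside 5 of 8 redox genes, and their median was -0.81, beside -1.49. TSA2 and AHP1 then lay in the middle of genes of that length, with 52.7% and 57.3% of the 368 below them. TRX2 and GRX1 each had 22.6% below them, SOD1 34.0%, TSA1 37.0%, GRX4 1.90% and TRX1 0.272%. After the turn the redox genes' median was -0.15, beside -0.47 for the 368 genes and -0.37 for all genes. Then 56.0% (SOD1) to 85.3% (TSA1) of the 368 lay below the 6 genes other than TRX1 and GRX4. Below TRX1 lay 2.45%, and below GRX4 0%. With the turn, and after subtracting from each array its median over the 368 genes, which was -1.31 on array 1 and 0.40 on array 2, the 6 genes other than TRX1 and GRX4 had means from 0.08 (SOD1) to 0.57 (TSA1). TSA1, TSA2 and AHP1 were then above the median of the 368 genes on both arrays, and TRX2, GRX1 and SOD1 were below that median on array 1 and above it on array 2. The part of gene length in the ratios of the redox genes was not tested beyond these values. Under the direction taken from SLT2, KDX1 and PIR3, agreeing deposited signs mean the same dye, not the same condition, was higher on both arrays. The sources used here do not state that direction, and the part of the dye was not tested.

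**Figure D4:**
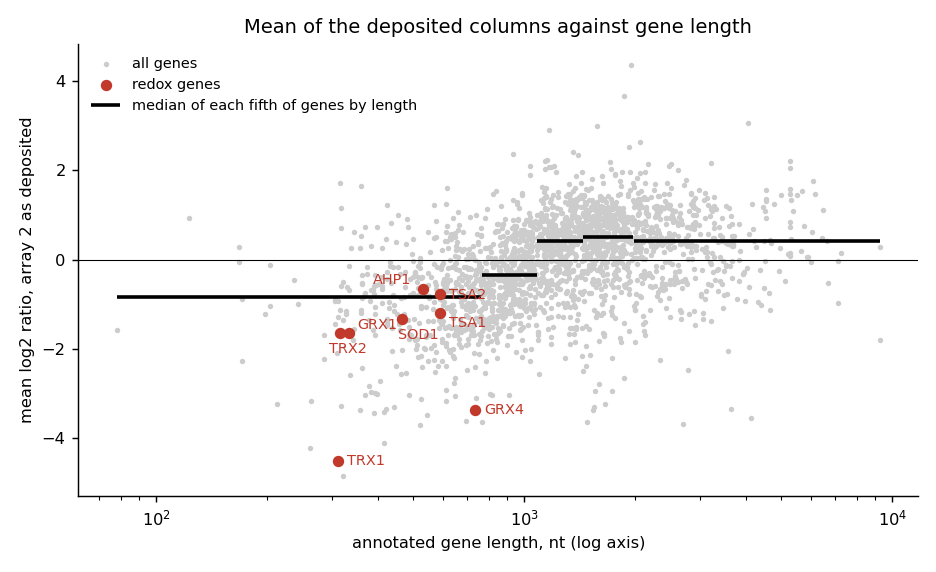
Mean log2 ratio of the 2 deposited columns, array 2 not turned, against annotated gene length on a log axis, for all genes (grey) and the 8 redox genes (red); black bars span groups of nearly equal size by length and mark each group's median. The redox genes are all at most 735 nt long and, TRX1 and GRX4 apart, lie between -1.65 and -0.66, where the shortest genes have a median of -0.85.

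By likeness over the 2 arrays, taken as the distance between the 2 turned log2 ratios, the gene nearest to GRX4 was YLR062C at 0.34 and the gene nearest to TRX1 was LSM6 at 0.46, each of them also in the low tail of array 1. SOD1 was nearest to ATP16 at 0.04 and AHP1 to PRE7 at 0.05. Likeness over 2 measurements is loose: 150 genes lay within 0.5 of AHP1, 89 of SOD1, 4 of GRX4 and 1 of TRX1. GRX1 was among the 3 genes nearest to TRX2, at 0.14, but 50 genes lay within 0.5 of TRX2 and 42 within 0.5 of GRX1.

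The rest of the redox network was followed in 8 lists of 73 genes, of which 41 had a ratio on both arrays and 21 on neither. With the turn 6 of the 41 were called negative and none positive, beside 13.6% and 2.88% of all genes, and their median was -0.38, beside -0.37. After centring each array on its median 2 were called negative and 2 positive, beside 7.14% and 5.41% of all genes: OPT1 and ARN2 kept the call, TRR2, YCF1, FLR1 and FET3 lost it because 1 array then had a positive ratio, and ECM38 and ALD6 were called positive. Among thioredoxin partners and clients 1 of 6 was called negative: TRR2, the mitochondrial thioredoxin reductase, at -0.12 and -2.22 (mean -1.17 ± 1.49). TRR1, the cytosolic reductase, had 0.02 and -0.35, a mean of -0.16 ± 0.26. None of 5 other peroxidases and catalases was called; GPX2, a glutathione peroxidase, had -0.95 ± 1.12 and the peroxisomal catalase CTA1 -0.91 ± 0.72. The catalase CTT1 had no ratio on either array.

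Among the other glutaredoxins and the glutathione genes, 2 of 9 were called negative, beside 13.6% of all genes. OPT1, an oligopeptide and glutathione transporter, had -2.62 and -1.29 (mean -1.95 ± 0.94), past 2-fold on each array, and YCF1, the vacuolar transporter of glutathione conjugates, had -0.11 and -2.71 (mean -1.41 ± 1.84). GLR1, the glutathione reductase, had 1.15 and -0.80, a mean of 0.18 ± 1.38. Neither of the 2 superoxide and copper genes was called, and both had means past 2-fold with opposite signs: the copper transporter CTR1 at -1.79 ± 2.78 and the mitochondrial dismutase SOD2 at -1.02 ± 2.66.

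None of 9 genes of NADPH supply was called. Their median was -0.01, with ALD6, a cytosolic aldehyde dehydrogenase, at 0.66 ± 1.09 and SOL3, a lactonase of the pentose phosphate pathway, at -0.61 ± 1.01. Of the regulators, YAP1 had no ratio, SKN7 had 0.35 and -0.08 (mean 0.13 ± 0.31) and STB5 had -0.74 ± 0.89; none of 3 was called. Of 3 further Yap1 targets 1 was called negative, beside 13.6% of all genes: FLR1, a drug exporter, at -3.48 and -0.06 (mean -1.77 ± 2.42). In the iron regulon below the Grx3 and Grx4 relay, 4 of 11 listed genes had a ratio on both arrays. Of these 4, 2 were called negative, beside 13.6% of all genes. They were the siderophore transporter ARN2 at -1.31 and -8.64 (mean -4.98 ± 5.19) and the iron oxidase FET3 at -0.10 and -1.92 (mean -1.01 ± 1.29). FET3 lost its call after centring each array on its median. AFT1 had no ratio. Of the 6 called genes only OPT1 and ARN2 were past 2-fold on each array.

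As deposited, the 41 listed genes valued on both arrays had a median of 0.43, beside 0.07 for all genes. The calls in these lists were then of other genes. The 7 called negative were DOT5, HYR1, MXR2, GRX3, GRX6, GRX7 and SOD2, named after their values were seen, beside 13.7% of all genes, and the 4 called positive were GSH1, ECM38, CTR1 and TKL1, beside 12.3%. The 7 negative genes were 492 to 753 nt long and the 4 positive ones 1221 to 2043 nt. DOT5, a nuclear peroxiredoxin, and HYR1, the peroxidase that senses peroxide for Yap1, had deposited means of -1.67 ± 0.02 and -1.68 ± 0.28, close to those of TRX2 and GRX1, and 0.02 and 0.20 with the turn.

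**Figure D5:**
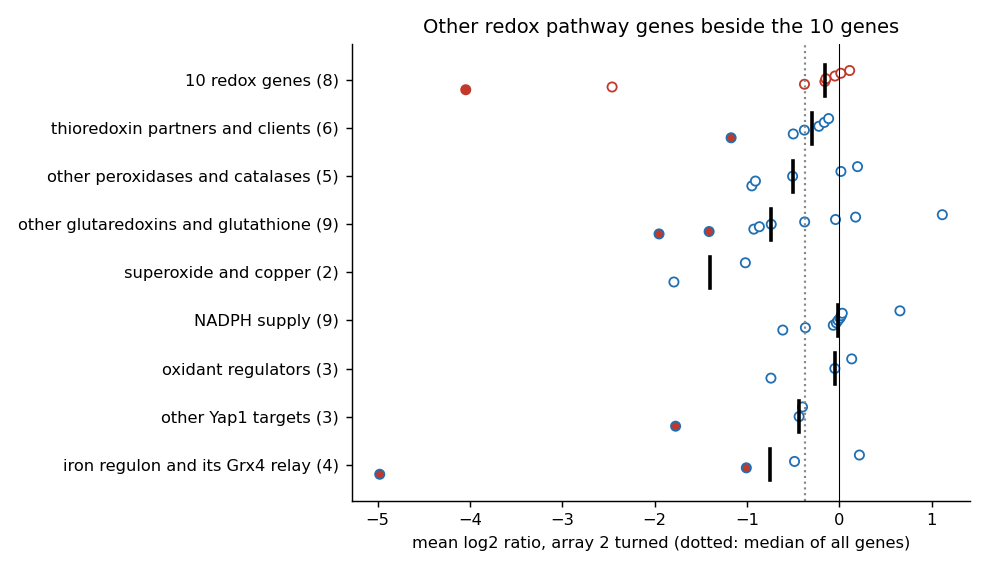
Mean log2 ratio with array 2 turned for the redox genes and the 8 other lists (number valued on both arrays in brackets); filled points were called, black bars are list medians, and the dotted line is the median of all genes. The calls are 1 redox gene (GRX4) and 6 genes of 4 lists, all negative, and no point is called positive.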

How the data were processed

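The data are 2 two-colour arrays of 1 split culture of the msn2/4 mutant. The deposited table holds 1 value per gene and array, read as a log2 ratio of the channels from the values themselves: all 387 deposited array 1 values under -2, and all 239 turned array 2 values under -2, are the log2 of a whole multiple of 0.0001 within the rounding to 4 decimals. Of the 40 array 2 values under -2 as deposited 3 pass, so the deposited column is the inverse of a ratio first written to 4 decimals. Whether that inversion was meant to bring it to the direction of array 1 is not stated in the sources used here. SLT2, KDX1 and PIR3 have opposite signs in the 2 deposited columns. Scanner, background correction, normalization and filter are not given in the sources used here, and spot intensities are not used here, so signal over background is unknown. Grouping followed the design text, which gives 1 culture.

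Here the sign of array 2 was turned, and mean and SD over the arrays were taken per gene with Python 3.11.15 and pandas 2.3.3; no test was run. The counting step was tested on simulated data with equal and opposite dye effects on the 2 arrays. That checks the code and not the calls in these data. Symbols and gene lengths come from a RefSeq gene table (assembly R64, 5654 of 6207 names matched); the array's build is not given, so no coordinates are printed. The genes, lists and settings were chosen with earlier results of these data known. Named genes are the 10 genes, up to 4 called genes of a list or the 2 largest means where none was called, TRR1, GLR1, YAP1, SKN7, SLT2, KDX1, PIR3, and the nearest gene of up to 4 of the 10; any other name was picked with its values in view. GRX3 is among these, as the partner of GRX4, as are AFT1 and CTT1, which have no ratio. Alternatives were centring, rescaling, array 2 as deposited, each array alone, other limits, leaving out genes whose arrays differ and, added after the data were seen, centring on genes of like length and leaving out TRX1 and GRX4.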

Additional observations from a re-analysis of the deposited data

How the results depend on the processing

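For the redox genes (1 negative, 0 positive of 8) centring, rescaling, a 1.5-fold limit and centring on genes of like length changed neither count. With array 2 as deposited 5 were negative, since the 2 columns then have the same sign, and with 2-fold required on each array 0 were. From 1 array alone 0 to 6 were negative and 0 to 6 positive, the 6 positive on array 2 and the 6 negative on array 1. No redox gene had turned ratios within 1 of each other, so that filter gave no value for them. Their median of -0.15 was 0.24 after centring, 0.45 after rescaling, 0.30 after centring on genes of like length, -0.10 over all 10 genes or without TRX1 and GRX4, and -1.70 and 1.40 on array 1 and array 2 alone. All lie within the SD of 2.00 between the arrays' medians, as each of the 48 single-gene alternatives lay within that gene's SD, which is wide and shows no stability. For the other pathway genes (6 negative, 0 positive of 41) the negative counts were 2 after centring, with or without rescaling, 2 with 2-fold on each array, 0 among the 9 genes whose arrays differ by at most 1 and 15 to 18 from 1 array; the positive counts were 2 after centring, 1 after rescaling, 4 without the turn and 4 to 5 on a single array. The cause was not tested. No paired analysis was possible because the 2 arrays form 1 group and measure the same 2 RNA extracts. The number of arrays and the unknown spot signal limit the precision of every value.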

Other observations

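The array carries 2 control spots, which entered no comparison. The buffer spot had 0.12 on array 1 and 0.53 on array 2 as deposited. The Arabidopsis spot had -1.15 on array 1 and 3.27 on array 2 as deposited, which is -3.27 with the turn. It thus had the same sign on both arrays after the turn, as did 896 of 2254 genes, GRX4 alone among the redox genes.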
